A study of Homo sapiens with 16 samples.

Results

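Cytosolic heat shock proteins are the chaperones that fold newly made proteins and refold damaged ones. The set described here held 10 genes, chosen by symbol from the 35993 gene symbols of the count table: the transcription factor HSF1, the HSP70 genes HSPA1A, HSPA1B and HSPA8, the HSP70 partners HSPH1, DNAJB1 and BAG3, the small heat shock protein gene HSPB1, and the HSP90 genes HSP90AA1 and HSP90AB1. All 10 passed the filter on low counts, as did 21297 genes in all. They were followed in 4 established lines of human bladder cancer cells, J82, RT112, TCCSUP and 253J, all wild type per the labels, each with 2 control libraries (vehicle, 0.01% DMSO) and 2 libraries of cells exposed for 48 h to CM-1758, an inhibitor of histone deacetylases, 16 libraries in all. CM-1758 was dosed at the IC50 of each line, so the concentration differed between lines. TCCSUP was grown in another medium than the other 3 lines, so that cell line, dose and medium cannot be told apart. The libraries were made from total RNA after removal of ribosomal RNA, and the study's methods describe them as independent biological replicates.

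In resting cells HSF1 is held inactive by chaperones, and proteins that lose their fold release it to switch on the stress-inducible genes of the family. HSP70 binds exposed hydrophobic stretches of a client protein and cycles with ATP, a cycle that J-domain proteins such as DNAJB1 start and exchange factors such as HSPH1 and BAG3 end. HSP90 takes over clients that are nearly folded, many of them kinases and steroid receptors, and small heat shock proteins such as HSPB1 hold unfolded proteins without using ATP. Tumour cells commonly depend on these chaperones, and HSP90 is itself a substrate of the cytosolic deacetylase HDAC6.

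HSF1 binds heat shock elements, in which the letters GAA and TTC alternate with 2 bases between them, so the promoters of the members were read for these letters first. RefSeq promoters (GRCh38.p14, 250 bases before to 50 bases after a start) were matched by symbol for 9 of the 10 members, with 14 starts. A run of 2 units (GAANNTTC or TTCNNGAA, each of which reads the same on both strands) lay in a promoter of 7 members, and in 8 of the 14 starts, against 13.5% of the 35116 promoters in the table. A run of 3 units, which contains 2 overlapping runs of 2, lay in a promoter of 3 members, HSPA8, HSP90AA1 and HSP90AB1, and in 3 of the 14 starts, against 0.49% of all promoters. The stretches below are shown because they carry these matches, in capitals, with 20 bases on each side of the first. Each ends before the start of its own promoter window. Numbered along the strand, that is start 2 for DNAJB1 and HSP90AA1 and start 3 for HSP90AB1, which have more than 1 start. The HSP90AB1 stretches lie downstream of its starts 1 and 2, whose windows hold no match.
HSPA1A, chr6:31815417-31815464, plus strand: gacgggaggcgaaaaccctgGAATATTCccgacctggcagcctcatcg
HSPA1B, chr6:31827613-31827660, plus strand: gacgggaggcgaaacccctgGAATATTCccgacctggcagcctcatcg
HSPA8, chr11:123062334-123062386, minus strand: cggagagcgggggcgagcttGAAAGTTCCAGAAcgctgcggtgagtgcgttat
HSPA8, chr11:123062159-123062211, minus strand: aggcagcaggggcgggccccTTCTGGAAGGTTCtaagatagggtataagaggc
DNAJB1, chr19:14518447-14518494, minus strand: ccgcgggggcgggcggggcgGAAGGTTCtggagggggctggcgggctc
DNAJB1, chr19:14518417-14518464, minus strand: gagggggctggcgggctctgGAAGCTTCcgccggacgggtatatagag
HSPB1, chr7:76302471-76302518, plus strand: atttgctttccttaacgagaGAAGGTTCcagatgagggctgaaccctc
HSP90AA1, chr14:102087100-102087152, minus strand: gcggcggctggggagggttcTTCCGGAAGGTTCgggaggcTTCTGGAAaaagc
HSP90AB1, chr6:44247758-44247810, plus strand: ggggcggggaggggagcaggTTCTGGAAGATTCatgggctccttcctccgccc
HSP90AB1, chr6:44247811-44247863, plus strand: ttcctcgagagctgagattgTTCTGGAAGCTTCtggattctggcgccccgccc
The HSPA1A match began 106 bases before its start and the HSPA1B match 105 bases before, in nearly identical surroundings. The HSP90AA1 stretch also holds a further run of 2 units, and a DNAJB1 match past a start is not shown. No match to these letters was in the windows of HSPH1 and BAG3. These matches describe the letters of the reference, and binding was not measured in these libraries.

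Levels are given in CPM, the count of a gene per 1000000 counts of its library after TMM scaling. Total counts ran from 27655401 to 32537104 in the control libraries and from 22506431 to 31547585 in the treated ones. A set of 7 abundant small noncoding RNA genes took 9.58 to 13.2% of the counts in control and 10.2 to 21.3% with CM-1758, and the 10 members together took 0.419 to 0.888% in control and 0.373 to 0.470% with CM-1758. The 2 libraries of a group correlated at r = 0.983 to 0.991 across genes. All 6 epithelial markers were above 3 counts in every group, and of 7 urothelial markers 6 were in RT112 control but 2 or 3 in the control cells of the other lines. Summed leukocyte and endothelial markers stayed at or under 20.9 CPM. The smooth muscle sum was 182 to 198 CPM in TCCSUP control and 12.5 to 15.98 CPM there with CM-1758. That fall was of ACTG2 (mean 190 to 4.53 CPM), while DES (0.176 to 9.06 CPM) and MYH11 (0 to 0.654 CPM) rose. The epithelial sum was 1228 to 1357 CPM in TCCSUP control and 369 to 467 CPM after treatment. Most of this was KRT18 (mean 969 to 163 CPM), and KRT19 alone was higher (116 to 181 CPM). In 253J the epithelial sum went from 3180 to 4332 CPM in control to 1851 to 2343 CPM after treatment. There KRT18 (mean 2327 to 766 CPM), CDH1 (181 to 26.1 CPM), KRT8 and KRT7 were lower, while KRT19 (877 to 1064 CPM) and EPCAM (0.467 to 1.53 CPM) were higher. In RT112 the urothelial sum was 1544 to 1786 CPM in control and 588 to 602 CPM after treatment. UPK1B made most of that fall (1408 to 352 CPM). UPK1A, UPK2 and PPARG were also lower, while GATA3 (37.5 to 46.3 CPM) and KRT20 (6.52 to 17.3 CPM) were higher. The part of these differences in the results was not tested.

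With CM-1758 more of the members were lower than higher. Since these are bulk libraries, less RNA per cell and fewer cells of a kind cannot be told apart. Of the 40 combinations of member and line, 22 were lower, 6 higher and 12 not called (edgeR quasi-likelihood test, Benjamini-Hochberg adjusted p under 0.05 within a line, no limit on the fold). All counts of members take HSPA1A and HSPA1B as 2, though the split of reads between these near copies is uncertain. In J82, 9 members were lower, where 18.5% of all tested genes were lower, and 0 were higher, also at an unadjusted p under 0.05 and with DESeq2, against 24% of genes. With J82 fitted alone 5 members were lower. In RT112, 6 were lower and 2 higher, beside 20.2% and 27.4% of genes. TCCSUP had 4 lower and 2 higher, beside 22.1% and 32%, the 2 higher being HSPA1A and HSPA1B. 253J had 3 lower and 2 higher, beside 22.4% and 28.8%. Scaled by library size alone, 7 were lower in J82, 4 in RT112, 3 in TCCSUP and 3 in 253J, with 0, 2, 2 and 2 higher.

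All 10 members were among the 10648 more highly expressed tested genes, of which 35.2% were lower in 253J, 36.1% in TCCSUP, 32.9% in RT112 and 30.2% in J82. In the same order 29.5%, 24.5%, 24% and 23.9% of these genes were higher, so more of them were lower than higher in each line. The median log2 fold change of the members was -0.07 in 253J, -0.43 in TCCSUP, -0.51 in RT112 and -0.70 in J82, beside 0.10, 0.20, 0.12 and 0.05 over all tested genes and -0.05, -0.14, -0.10 and -0.08 over the more highly expressed ones. HSPH1 and HSP90AB1 were lower in all 4 lines, as were 6.01% of genes, and 0 members were higher in all 4, as were 6.69%. In the model with 1 common effect over the lines, 5 members were lower (20.5% of genes) and 0 higher (32.4%), also at an unadjusted p under 0.05. The response differed between lines for 7 members, against 51.9% of genes, by a test of the difference itself. Without TCCSUP control replicate 1, or without TCCSUP CM-1758 replicate 1, that number was 5. The control level differed between lines for all 10, against 78.8% of genes.

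**Figure D1:**
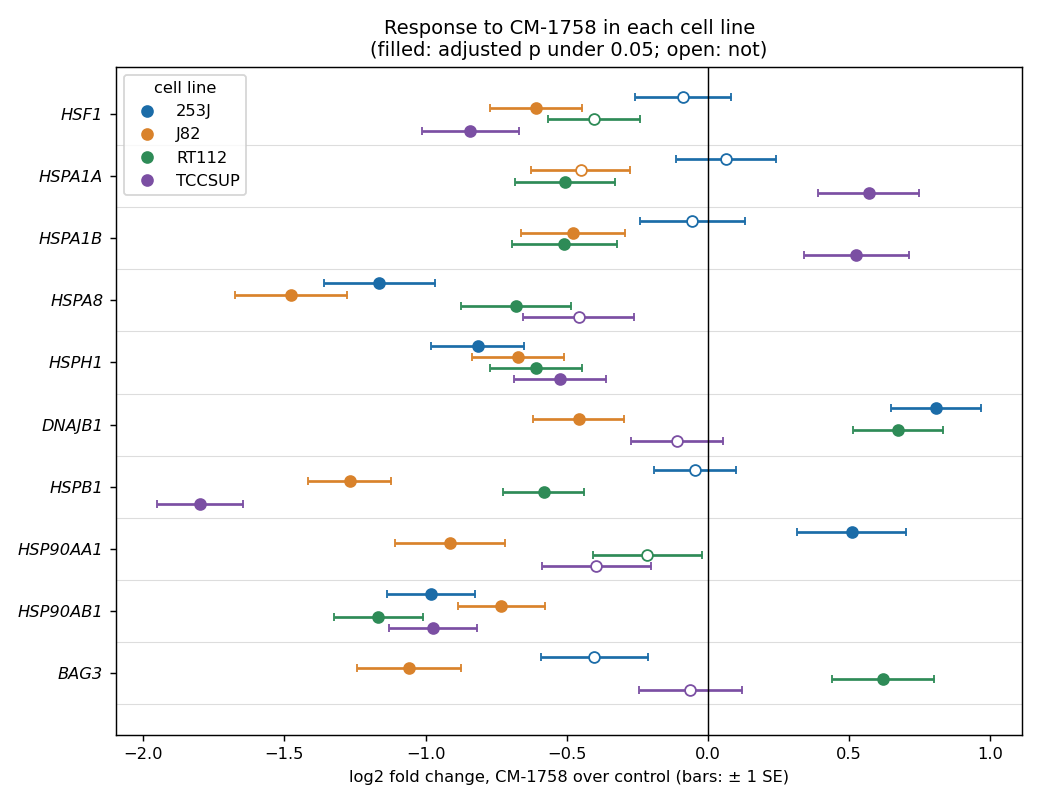
Log2 fold change of CM-1758 over control (horizontal axis) for each of the 10 genes in each of 4 cell lines, with bars of 1 standard error; filled points have an adjusted p under 0.05. HSPH1 and HSP90AB1 lie left of 0 in all 4 lines, while the points of DNAJB1, HSP90AA1, BAG3, HSPA1A and HSPA1B spread to both sides.

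Levels in control cells set the scale for these changes. Per kilobase of 1 reference transcript per gene, HSPA8 had the highest level of the members in every group, at 944 to 1572 CPM per kilobase in control and 565 to 796 with CM-1758. HSP90AB1 followed with 401 to 641 CPM per kilobase in control. HSF1 (7.71 to 23.4) and BAG3 (5.44 to 11.8) were the lowest in control. J82 had the highest control level of 8 members, and the lines differed most in HSPA1B, 6.85-fold between J82 and TCCSUP, and least in HSP90AB1, 1.6-fold between J82 and 253J.

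**Figure D2:**
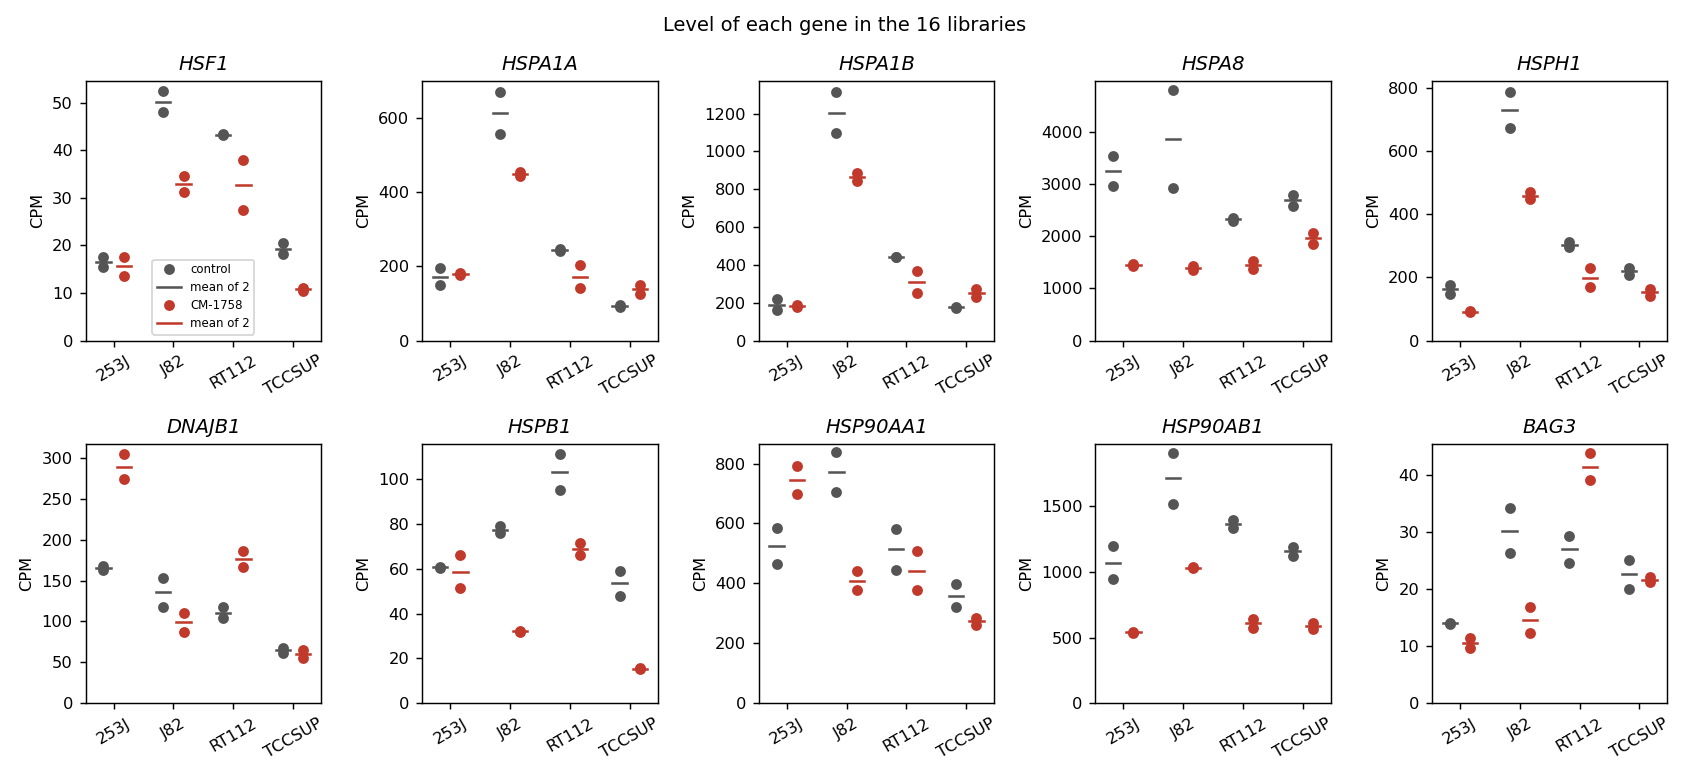
Level of each gene in CPM (vertical axis, from 0) in the 16 libraries, with 1 point per library, control in grey and CM-1758 in red, and a line at the mean of 2. HSPA8 fell to between 1350.1 and 1522 CPM in the treated libraries of 253J, J82 and RT112, and the red points of DNAJB1 lie above the grey ones in 253J and RT112.

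HSF1, the transcription factor that drives the heat shock response, was lower in J82 and TCCSUP and in no line higher. In J82, HSF1 was at 47.98 and 52.5 CPM in control and at 34.6 and 31.3 CPM with CM-1758, a log2 fold change of -0.61 ± 0.16 (SE, adjusted p = 0.00729). The TCCSUP control libraries held 18.1 and 20.4 CPM of HSF1 and the treated ones 10.4 and 11.1 CPM, which is a log2 fold change of -0.84 ± 0.17 (SE, adjusted p = 0.000826). Treated and control libraries did not overlap in either line. The J82 call was lost without J82 CM-1758 replicate 3 (log2 fold change -0.54, adjusted p = 0.0599). HSF1 in RT112 measured 43.2 and 43.3 CPM with vehicle against 37.9 and 27.5 CPM with CM-1758 (log2 fold change -0.40 ± 0.16, SE, adjusted p = 0.0538). For 253J, the values of HSF1 were 15.5 and 17.5 CPM in control and 17.5 and 13.7 CPM after treatment, with a log2 fold change of -0.09 ± 0.17 (SE, adjusted p = 0.723). The RT112 groups did not overlap but missed the threshold, which 5 of the 16 fits that left out a library passed. Of these, only the fit without RT112 CM-1758 replicate 1 (-0.66) left out an RT112 library. The rest left out a library of 253J or J82. The 253J groups overlapped. The common effect was -0.49 ± 0.12 (SE, adjusted p = 0.00355), and the test of a difference between lines gave an adjusted p of 0.0729. Control levels were highest in J82 (50.2 CPM) and RT112 (43.3 CPM), for which no difference was called (adjusted p = 0.294), and lower in TCCSUP (19.3 CPM) and 253J (16.5 CPM), likewise not called (adjusted p = 0.291).

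HSPA1A and HSPA1B are neighbouring genes for nearly the same stress-inducible HSP70. Their response took opposite directions, higher in TCCSUP and lower in RT112, with HSPA1B also lower in J82. In TCCSUP, HSPA1A was at 89.4 and 97.03 CPM in control and at 150.2 and 126 CPM with CM-1758, a log2 fold change of 0.57 ± 0.18 (SE, adjusted p = 0.0142). The TCCSUP control libraries held 172 and 179 CPM of HSPA1B and the treated ones 274 and 232 CPM, which is a log2 fold change of 0.53 ± 0.19 (SE, adjusted p = 0.0267). Both treated TCCSUP libraries lay above both control libraries for both genes. The HSPA1A rise was lost without TCCSUP control replicate 1 (0.51, adjusted p = 0.0967) or CM-1758 replicate 1 (0.43, adjusted p = 0.125). The HSPA1B rise was lost without control replicate 1 (0.49, adjusted p = 0.12), control replicate 2 (0.55, adjusted p = 0.087) or CM-1758 replicate 1 (0.40, adjusted p = 0.179).

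In RT112 the pair moved the other way. HSPA1A in RT112 measured 243 and 248 CPM with vehicle against 203 and 143 CPM with CM-1758 (log2 fold change -0.51 ± 0.18, SE, adjusted p = 0.0288). For RT112, the values of HSPA1B were 441 and 443 CPM in control and 368 and 253 CPM after treatment, with a log2 fold change of -0.51 ± 0.19 (SE, adjusted p = 0.0346). The 2 treated libraries differed from each other, replicate 2 being the lower, and both lay under the controls. Without RT112 CM-1758 replicate 2 the values were -0.28 (adjusted p = 0.3) and -0.27 (adjusted p = 0.341). Without RT112 control replicate 1 or 2 the calls were also lost, at -0.52 and -0.50 for HSPA1A (adjusted p = 0.0879 and 0.103) and -0.52 and -0.51 for HSPA1B (adjusted p = 0.106 and 0.107). RLE scaling also ended both calls (-0.43 with adjusted p = 0.0571 for HSPA1A, and -0.43 with 0.0665 for HSPA1B). In J82, HSPA1A was at 558 and 671 CPM in control and at 443 and 456 CPM with CM-1758, a log2 fold change of -0.45 ± 0.18 (SE, adjusted p = 0.0522). The J82 control libraries held 1095 and 1314 CPM of HSPA1B and the treated ones 846 and 885 CPM, which is a log2 fold change of -0.48 ± 0.19 (SE, adjusted p = 0.0499). J82 had both the highest control and the highest treated levels of the pair. The HSPA1A fall passed in 5 of the 16 fits that left out a library. Of these, only the fit without J82 control replicate 1 (-0.58) left out a J82 library. The rest left out a library of 253J or RT112, with the value still at -0.45. The HSPA1B call in J82 sat at the threshold, was kept in 5 of the 16 fits that left out a library, and was not made by DESeq2 (adjusted p = 0.0763). Without J82 control replicate 3 its log2 fold change was -0.34 (adjusted p = 0.246).

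253J showed no call for either gene. HSPA1A in 253J measured 149 and 195 CPM with vehicle against 182 and 177 CPM with CM-1758 (log2 fold change 0.06 ± 0.18, SE, adjusted p = 0.826). For 253J, the values of HSPA1B were 161 and 218 CPM in control and 189 and 176 CPM after treatment, with a log2 fold change of -0.06 ± 0.19 (SE, adjusted p = 0.866). The groups overlapped for both. The response differed between lines with an adjusted p of 0.00637 for HSPA1A and 0.0116 for HSPA1B, where TCCSUP differed from J82 and from RT112 in each. Of all stretches of 100 bases in the HSPA1A transcript, 69.9% were also in HSPA1B, and 68.8% the other way round, so that the split of reads between the copies is uncertain. In control cells HSPA1A ran from 614 CPM in J82 through 245 in RT112 and 172 in 253J to 93.2 in TCCSUP, and each neighbour in that order differed (adjusted p of 0.0235 or less). HSPA1B had the same order, from 1205 CPM through 442 and 189.6 to 176, with the last step not called (adjusted p = 0.679).

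HSPA8, the constitutive HSP70 known as HSC70, showed the steepest falls of the 3 HSP70 members and was lower in 253J, J82 and RT112. In 253J, HSPA8 was at 3549 and 2959.6 CPM in control and at 1465 and 1441 CPM with CM-1758, a log2 fold change of -1.16 ± 0.20 (SE, adjusted p = 0.000168). The J82 control libraries held 2935 and 4811 CPM of HSPA8 and the treated ones 1435 and 1350.1 CPM, which is a log2 fold change of -1.48 ± 0.20 (SE, adjusted p = 3.51e-05). HSPA8 in RT112 measured 2289 and 2361 CPM with vehicle against 1382 and 1522 CPM with CM-1758 (log2 fold change -0.68 ± 0.20, SE, adjusted p = 0.0102). Treated libraries of these lines gathered in a narrow range, while the J82 controls differed most from each other. For TCCSUP, the values of HSPA8 were 2586 and 2802 CPM in control and 2072 and 1851 CPM after treatment, with a log2 fold change of -0.46 ± 0.20 (SE, adjusted p = 0.0603). The TCCSUP groups did not overlap, but the fall missed the threshold, and it passed in 3 of the 16 fits that left out a library, those without J82 control replicate 1 (-0.46, adjusted p = 0.011) or 3 (adjusted p = 0.0111) and without J82 CM-1758 replicate 1 (-0.48, adjusted p = 0.0488). It also passed with TCCSUP fitted alone (-0.47, adjusted p = 0.0163) and with no filter on low counts (-0.47, adjusted p = 0.0496). The RT112 call was lost without RT112 CM-1758 replicate 1 (-0.61, adjusted p = 0.0715). The common effect was -0.94 ± 0.15 (SE, adjusted p = 0.000201). The response differed between lines (adjusted p = 0.0215), and J82 against TCCSUP was the pair that passed (adjusted p = 0.0157). Control levels went from 3873 CPM in J82 through 3254 in 253J and 2694 in TCCSUP to 2325 in RT112, and no neighbours in that order were called different. Of the 6 pairs of lines 3 differed, J82 from RT112 (adjusted p = 0.00517) and TCCSUP (adjusted p = 0.0379), and 253J from RT112 (adjusted p = 0.0476).

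HSPH1, an HSP110 protein that exchanges the nucleotide of HSP70, was lower in all 4 lines, with log2 fold changes from -0.82 to -0.52. In 253J, HSPH1 was at 177 and 146 CPM in control and at 90.8 and 93.04 CPM with CM-1758, a log2 fold change of -0.82 ± 0.16 (SE, adjusted p = 0.000686). The J82 control libraries held 674 and 787 CPM of HSPH1 and the treated ones 470.1 and 447 CPM, which is a log2 fold change of -0.67 ± 0.16 (SE, adjusted p = 0.00362). HSPH1 in RT112 measured 295 and 311 CPM with vehicle against 168 and 229.7 CPM with CM-1758 (log2 fold change -0.61 ± 0.16, SE, adjusted p = 0.00633). In none of these did the treated libraries reach a control library. For TCCSUP, the values of HSPH1 were 209 and 230.2 CPM in control and 143 and 163 CPM after treatment, with a log2 fold change of -0.52 ± 0.16 (SE, adjusted p = 0.0133). The common effect was -0.66 ± 0.09 (SE, adjusted p = 6.01e-05), and the test for a difference between lines gave an adjusted p of 0.717. The TCCSUP call was lost without TCCSUP control replicate 2 (-0.46, adjusted p = 0.0882) or CM-1758 replicate 1 (-0.44, adjusted p = 0.105) and when scaled by library size alone (-0.21, adjusted p = 0.273). The RT112 call was lost without RT112 CM-1758 replicate 1 (-0.40, adjusted p = 0.0996), and the J82 call when J82 was fitted alone (-0.66, adjusted p = 0.0646). Control levels ran from 731 CPM in J82 through 303 in RT112 and 219.7 in TCCSUP to 162 in 253J, and all 6 pairs of lines differed.

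DNAJB1, the J-domain protein also called HSP40 and a stress-inducible partner of HSP70, rose in 253J and RT112 and fell in J82. In 253J, DNAJB1 was at 163 and 168 CPM in control and at 305 and 274 CPM with CM-1758, a log2 fold change of 0.81 ± 0.16 (SE, adjusted p = 0.000634). The RT112 control libraries held 117 and 104 CPM of DNAJB1 and the treated ones 187 and 166 CPM, which is a log2 fold change of 0.67 ± 0.16 (SE, adjusted p = 0.00302). All treated libraries of these lines lay above their controls, and both calls were kept in all 16 fits that left out a library. DNAJB1 in J82 measured 118 and 153 CPM with vehicle against 86.8 and 111 CPM with CM-1758 (log2 fold change -0.46 ± 0.16, SE, adjusted p = 0.0311). For TCCSUP, the values of DNAJB1 were 61.7 and 68.1 CPM in control and 64.7 and 55.6 CPM after treatment, with a log2 fold change of -0.11 ± 0.16 (SE, adjusted p = 0.595). The J82 fall was lost without J82 control replicate 3 (-0.26) or CM-1758 replicate 1 (-0.21). It was also lost with DESeq2 (-0.37, adjusted p = 0.0515), with RLE scaling (-0.37, adjusted p = 0.0772) and by library size alone (-0.31, adjusted p = 0.107). The same held with at least 10 counts in every library (-0.34, adjusted p = 0.0704) and with J82 fitted alone (-0.44, adjusted p = 0.17). The response differed between lines (adjusted p = 0.000616) in 4 of the 6 pairs, and 253J and RT112 were not among the pairs that passed (adjusted p = 0.764). Control levels ran from 165 CPM in 253J through 136 in J82 and 111 in RT112 to 64.9 in TCCSUP, of which the last step alone was called (adjusted p = 0.00091).

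BAG3, an HSP70 cochaperone that steers aggregation-prone clients to selective autophagy, rose in RT112 and fell in J82. In RT112, BAG3 was at 24.6 and 29.2 CPM in control and at 39.1 and 43.7 CPM with CM-1758, a log2 fold change of 0.62 ± 0.18 (SE, adjusted p = 0.0106). The J82 control libraries held 34.1 and 26.4 CPM of BAG3 and the treated ones 16.8 and 12.3 CPM, which is a log2 fold change of -1.06 ± 0.18 (SE, adjusted p = 0.000324). Neither pair of groups overlapped. The RT112 rise was lost without RT112 control replicate 1 (0.50, adjusted p = 0.109) or CM-1758 replicate 2 (0.54, adjusted p = 0.0771), while the J82 fall was kept in all 16 such fits. BAG3 in 253J measured 14.01 and 13.9 CPM with vehicle against 11.5 and 9.69 CPM with CM-1758 (log2 fold change -0.40 ± 0.19, SE, adjusted p = 0.0904). For TCCSUP, the values of BAG3 were 19.98 and 25.1 CPM in control and 22.01 and 21.2 CPM after treatment, with a log2 fold change of -0.06 ± 0.18 (SE, adjusted p = 0.807). Both of these missed the threshold. The response differed between lines (adjusted p = 0.000588), with RT112 apart from 253J and J82, and J82 apart from TCCSUP. In control the levels were 30.2 CPM in J82, 26.9 in RT112, 22.6 in TCCSUP and 13.98 in 253J, and of the neighbours the last alone differed (adjusted p = 0.00558).

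HSPB1, the small heat shock protein HSP27, fell in TCCSUP, J82 and RT112, and its fall in TCCSUP was the largest of any member. In TCCSUP, HSPB1 was at 47.96 and 58.9 CPM in control and at 15.6 and 15.1 CPM with CM-1758, a log2 fold change of -1.80 ± 0.15 (SE, adjusted p = 2.72e-07). The J82 control libraries held 78.9 and 76.1 CPM of HSPB1 and the treated ones 31.9 and 32.4 CPM, which is a log2 fold change of -1.27 ± 0.15 (SE, adjusted p = 9.13e-06). HSPB1 in RT112 measured 111 and 94.95 CPM with vehicle against 66.2 and 71.4 CPM with CM-1758 (log2 fold change -0.58 ± 0.14, SE, adjusted p = 0.00404). In the first 2 lines the treated values lay far under the controls and close to each other. For 253J, the values of HSPB1 were 60.6 and 60.6 CPM in control and 66.1 and 51.3 CPM after treatment, with a log2 fold change of -0.05 ± 0.14 (SE, adjusted p = 0.852). In 253J the treated libraries lay on either side of the controls. The RT112 call was lost without RT112 control replicate 1 (-0.47, adjusted p = 0.0566). The common effect was -0.92 ± 0.20 (SE, adjusted p = 0.00158), and the lines differed (adjusted p = 3.67e-05) in 4 of 6 pairs. Control levels went from 103 CPM in RT112 through 77.5 in J82 and 60.6 in 253J to 53.4 in TCCSUP, where the first step alone was called (adjusted p = 0.0262). The ends of that order were 1.93-fold apart, whereas the treated means were 4.48-fold apart.

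HSP90AB1, the constitutive HSP90, was lower in all 4 lines, to between 44.5% and 60.2% of control. In 253J, HSP90AB1 was at 1196 and 948 CPM in control and at 546 and 539 CPM with CM-1758, a log2 fold change of -0.98 ± 0.16 (SE, adjusted p = 9.2e-05). The J82 control libraries held 1521 and 1909.7 CPM of HSP90AB1 and the treated ones 1029 and 1038 CPM, which is a log2 fold change of -0.73 ± 0.16 (SE, adjusted p = 0.00149). HSP90AB1 in RT112 measured 1337 and 1393 CPM with vehicle against 572 and 644 CPM with CM-1758 (log2 fold change -1.17 ± 0.16, SE, adjusted p = 2.87e-05). Treated and control libraries were apart in each. For TCCSUP, the values of HSP90AB1 were 1125 and 1189.5 CPM in control and 615 and 565 CPM after treatment, with a log2 fold change of -0.97 ± 0.16 (SE, adjusted p = 0.000106). The 4 calls were kept in all 16 fits that left out a library, and the J82 call was lost when J82 was fitted alone (-0.72, adjusted p = 0.0709). The common effect was -0.96 ± 0.10 (SE, adjusted p = 4.23e-06), and no difference between lines was called (adjusted p = 0.381). In control the order was J82 (1715 CPM), RT112 (1365), TCCSUP (1157) and 253J (1072), with no neighbours called different. Of the 6 pairs of lines 2 differed, J82 from 253J (adjusted p = 0.00171) and from TCCSUP (adjusted p = 0.00687).

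HSP90AA1, the stress-inducible HSP90, showed a fall in J82 and a rise in 253J. In J82, HSP90AA1 was at 837 and 704 CPM in control and at 440.1 and 378 CPM with CM-1758, a log2 fold change of -0.91 ± 0.19 (SE, adjusted p = 0.00144). The 253J control libraries held 584 and 464 CPM of HSP90AA1 and the treated ones 699 and 793 CPM, which is a log2 fold change of 0.51 ± 0.19 (SE, adjusted p = 0.0375). The groups were apart in both lines. The J82 fall was kept in all 16 fits that left out a library, whereas the 253J rise was lost without 253J control replicate 3 (0.35, adjusted p = 0.261), CM-1758 replicate 1 (0.60, adjusted p = 0.0534) or CM-1758 replicate 3 (0.41, adjusted p = 0.185). HSP90AA1 in RT112 measured 444 and 583 CPM with vehicle against 378 and 507 CPM with CM-1758 (log2 fold change -0.21 ± 0.19, SE, adjusted p = 0.382). For TCCSUP, the values of HSP90AA1 were 322 and 396 CPM in control and 284 and 262 CPM after treatment, with a log2 fold change of -0.40 ± 0.19 (SE, adjusted p = 0.0959). The RT112 groups overlapped and the TCCSUP groups did not, and with TCCSUP fitted alone the fall passed (-0.41, adjusted p = 0.0156). The response differed between lines (adjusted p = 0.00363), with 253J apart from J82 (adjusted p = 0.00106) and from TCCSUP (adjusted p = 0.0211). In control J82 (770.5 CPM) was above 253J (524) and RT112 (513), which were not called different (adjusted p = 0.977), and TCCSUP was lowest (359 CPM).

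Ratios of counts between members were taken within each library, 4 in all. All but HSPA1A over HSPA1B, given under other observations, set inducible against constitutive members. The ratios were chosen after the values of the members were seen, so that they are given as a description with no test. They need no scaling between libraries, and they are not corrected for length, so that only their change is read. The ratio of HSP90AA1 to HSP90AB1 went from 0.488 and 0.49 to 1.28 and 1.47 in 253J. It also went from 0.332 and 0.418 to 0.661 and 0.787 in RT112 and from 0.286 and 0.333 to 0.462 and 0.464 in TCCSUP, without overlap in any of the 3 lines. In J82 it overlapped, at 0.368 and 0.551 in control and 0.364 and 0.428 with CM-1758. The mean change was 0.71 on the log2 scale over the 4 lines, from -0.19 in J82 to 1.49 in 253J. HSP90AA1 itself was not called higher in RT112 or TCCSUP (log2 fold changes of -0.21 and -0.40), beside -1.17 and -0.97 for HSP90AB1.

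The ratio of HSPA1A and HSPA1B together to HSPA8 went from 0.0874 and 0.14 to 0.245 and 0.253 in 253J, from 0.413 and 0.563 to 0.898 and 0.993 in J82 and from 0.0986 and 0.101 to 0.194 and 0.205 in TCCSUP. RT112 overlapped, with 0.292 and 0.299 in control and 0.26 and 0.413 after treatment. Its mean change was 0.82 on the log2 scale over the 4 lines, from 0.15 in RT112 to 1.17 in 253J. HSPA1A and HSPA1B themselves had log2 fold changes of -0.45 and -0.48 in J82, beside -1.48 for HSPA8. In 253J theirs were 0.06 and -0.06, beside -1.16 for HSPA8. DNAJB1 over HSPA8 was higher with CM-1758 in all 4 lines without overlap, by a mean of 1.16 on the log2 scale. Its ratio went from 0.0459 and 0.0567 to 0.19 and 0.208 in 253J and from 0.0239 and 0.0243 to 0.0301 and 0.0312 in TCCSUP, the lines with the largest and the smallest change. DNAJB1 itself had log2 fold changes of -0.46 in J82 and -0.11 in TCCSUP, beside -1.48 and -0.46 for HSPA8.

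**Figure D3:**
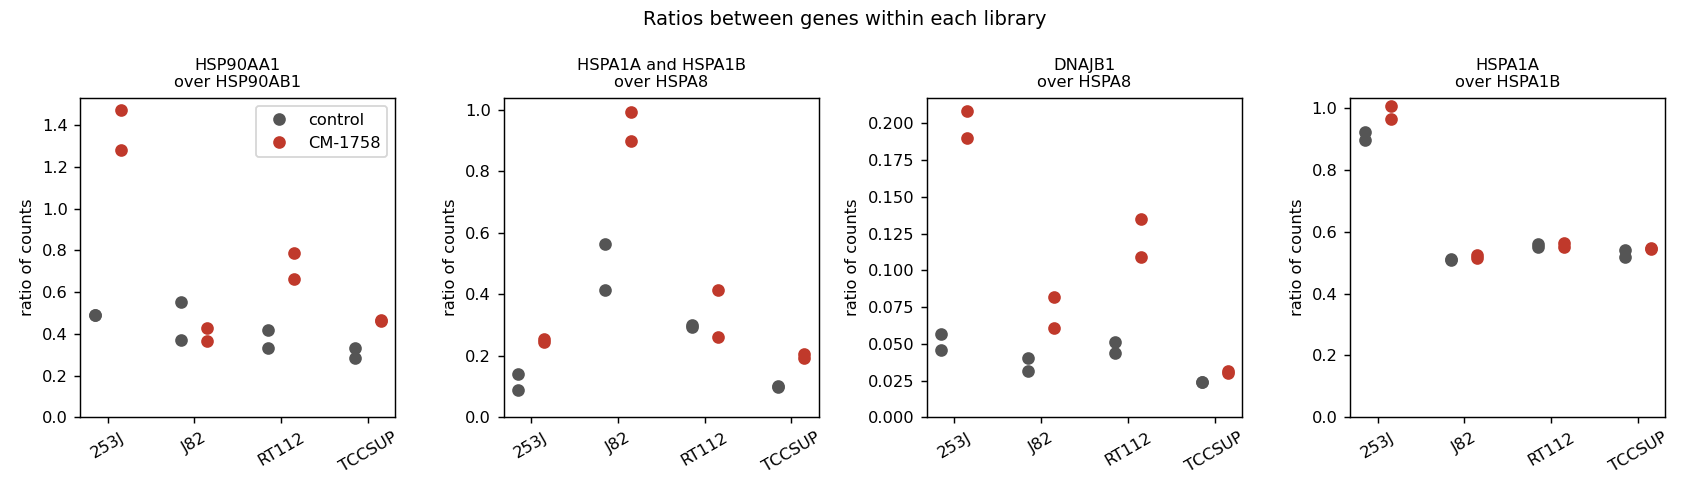
Ratio of counts between 2 members within each of the 16 libraries (vertical axes, from 0), control in grey and CM-1758 in red. The red points of DNAJB1 over HSPA8 lie above the grey ones in every line, and HSPA1A over HSPA1B lies between 0.896 and 1.01 in 253J and between 0.509 and 0.564 in the other lines.

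Of 82 other chaperone genes in 9 lists, 74 could be tested, with 15 higher and 19 lower in 253J, 8 and 25 in J82, 14 and 29 in RT112, and 16 and 21 in TCCSUP. The lower ones were 33.8% of the 74 in J82, 39.2% in RT112, 28.4% in TCCSUP and 25.7% in 253J, beside 18.5%, 20.2%, 22.1% and 22.4% of all tested genes and 30.2%, 32.9%, 36.1% and 35.2% of the more highly expressed ones. The higher ones were 10.8%, 18.9%, 21.6% and 20.3% in the same order, beside 24%, 27.4%, 32% and 28.8% of all tested genes. Of the more highly expressed genes 23.9%, 24%, 24.5% and 29.5% were higher. With scaling by library size alone they were 25 and 13 in 253J, 12 and 18 in J82, 16 and 21 in RT112, and 33 and 9 in TCCSUP. The counts that follow are in the order 253J, J82, RT112, TCCSUP, as a description of each list. Mitochondrial chaperones were lower for 4 of 8 in both 253J and J82 and 7 of 8 in RT112, while TCCSUP had 1 lower and 1 higher. Cytosolic chaperonin and prefoldin genes, which fold actin and tubulin, were lower for 4, 6, 8 and 5 of 15, and higher for 3, 0, 2 and 3. HSP90 cochaperones were lower for 3, 5, 4 and 2 of 14, and higher for 4, 2, 1 and 4. The exchange factors and adaptors of HSP70 were lower for 2, 4, 3 and 3 of 8 and higher for 2 in 253J alone. The other J-domain genes were lower for 0, 3, 2 and 4 of 8 and higher for 4, 1, 2 and 0. For the other cytosolic HSP70 genes 0, 3, 4 and 5 of 7 were higher and 3, 0, 1 and 0 lower.

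The remaining lists were small. Of 4 tested regulators and relatives of HSF1, 1 was higher and 1 lower in each line, HSF2 being the higher one in J82, RT112 and TCCSUP and HSBP1 in 253J. Among 4 tested small heat shock protein genes HSPB8, a partner of BAG3, was higher in J82, RT112 and TCCSUP, HSPB11 was lower in RT112 and HSPB3 in TCCSUP. Of 6 autophagy and stress partners of BAG3, 1, 0, 3 and 1 were higher and 2, 2, 2 and 4 lower.

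Lower in all 4 lines were CCT5, HSBP1L1, HSPBP1 and HSPE1, which is 5.41% of the 74, beside 6.01% of all tested genes. CCT5, a chaperonin subunit, had log2 fold changes of -0.95 in J82, -1.12 in RT112, -0.80 in TCCSUP and -0.96 in 253J. HSPE1, the lid of the mitochondrial chaperonin, changed by -1.15 in J82, -1.39 in RT112, -0.72 in TCCSUP and -1.11 in 253J. The exchange factor HSPBP1 stood at -1.19 in J82, -0.61 in RT112, -0.76 in TCCSUP and -0.58 in 253J, and HSBP1L1, a relative of the HSF1-binding protein HSBP1, at -1.68 in J82, -1.25 in RT112, -1.88 in TCCSUP and -1.40 in 253J. Each of these 16 values had an adjusted p of 0.019 or less.

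Extremes were taken within each line, among called companions with a mean log2 CPM above 0. In 253J the largest rise was of SQSTM1, the autophagy receptor p62, with 652 ± 30.7 CPM in control and 5747 ± 27.8 CPM with CM-1758 (SD, n = 2). HSPA2, an HSP70 best known from testis, had the largest rise in J82, at 4.50 ± 0.35 (SE, adjusted p = 2.47e-07), and in RT112, at 3.33 ± 0.29 (SE, adjusted p = 5.86e-07). Its level went from a low 0.648 ± 0.164 CPM to 14.8 ± 6.01 CPM in J82 (SD, n = 2). In RT112 it went from 2.93 ± 0.114 to 29.4 ± 2.23 CPM (SD, n = 2). FKBP5, an HSP90 cochaperone of steroid receptors, led in TCCSUP, with 0.253 ± 0.0334 CPM in control and 20.4 ± 2.02 CPM with CM-1758 (SD, n = 2). Under the same limit on the level, the largest falls were of HSPD1, the mitochondrial HSP60, in 253J at -2.05 ± 0.19 (SE, adjusted p = 6.06e-07) and in RT112 at -1.66 ± 0.19 (SE, adjusted p = 5.97e-06). In J82 it was DNAJA4, a J-domain protein, at -1.77 ± 0.21 (SE, adjusted p = 1.79e-05), and in TCCSUP HSPB3, a small heat shock protein, at -1.52 ± 0.55 (SE, adjusted p = 0.0343).

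**Figure D4:**
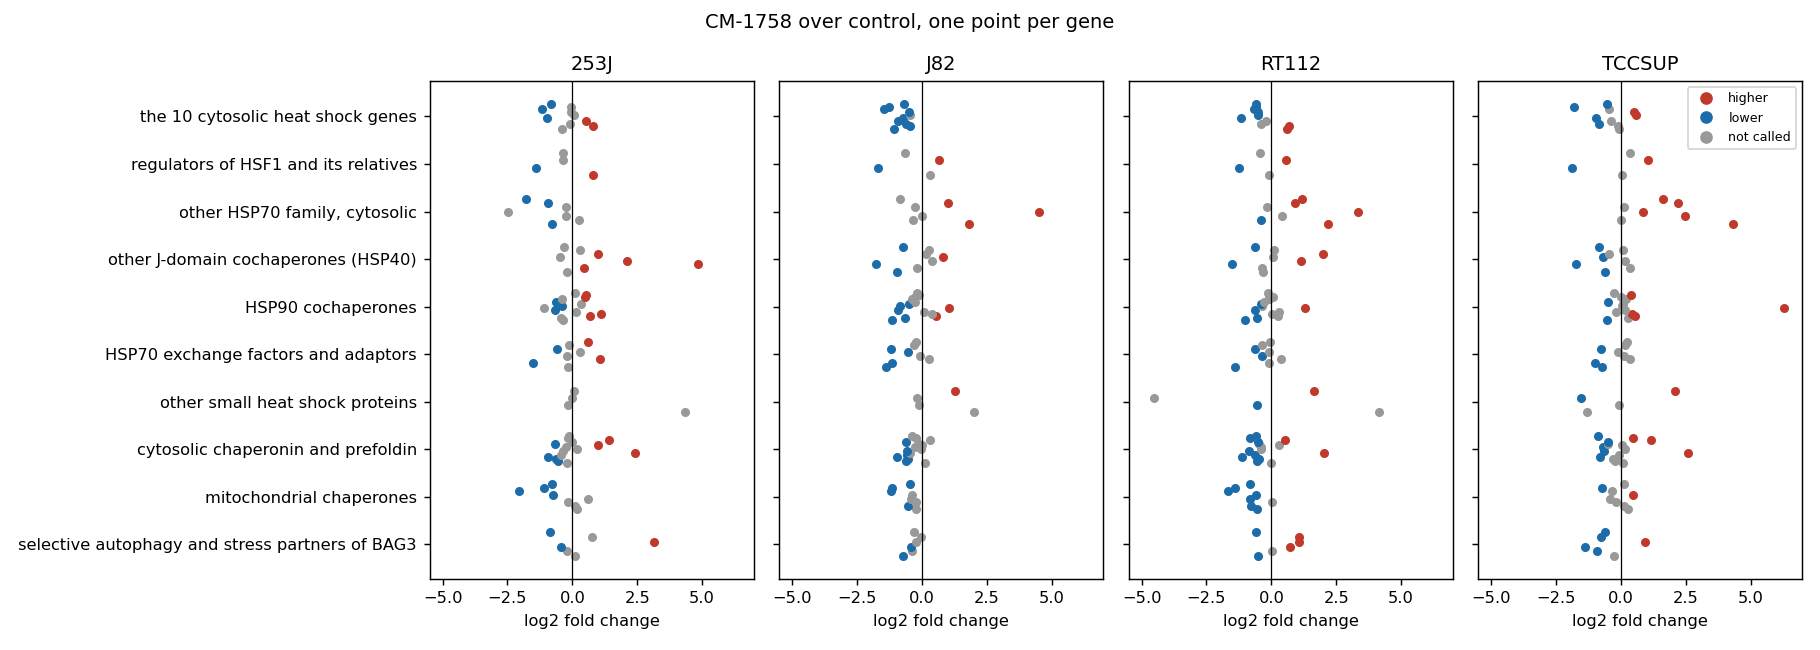
Log2 fold change of CM-1758 over control (horizontal axes) for the 10 genes and for the 74 tested genes of 9 companion lists (rows), 1 panel per cell line, with 1 point per gene coloured by its call. In J82 the top row holds 9 lower members and 0 higher ones, and in RT112 the mitochondrial row holds 7 lower genes of 8.

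The pattern of levels over the 16 libraries, which mixes cell line and treatment, was also compared between genes, as a description. Among the members HSPA1A and HSPA1B were closest (Pearson r of log2 CPM = 0.939), followed by HSPA1B and HSPH1 (r = 0.889). Outside the members HSP90AB1 was most like H2BC7 (r = 0.98), H2BC17 (r = 0.964) and EFCAB2 (r = 0.962), the first 2 being histone genes. HSPA8 was most like HSPA8P8 (r = 0.956), MYO19 (r = 0.93) and HNRNPAB (r = 0.93), the first being a pseudogene of HSPA8 by its symbol. HSPH1 was nearest to DEK (r = 0.975), RASSF7 (r = 0.973) and RPP40 (r = 0.961). HSPA1B was nearest to SF3B2 (r = 0.973), STIP1 (r = 0.964) and VAMP5 (r = 0.956), of which STIP1 encodes HOP, the protein that links HSP70 to HSP90.

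The other members had these neighbours. HSPA1A was most like LY6K (r = 0.97), CHCHD6 (r = 0.96) and MACROD1 (r = 0.955). HSF1 lay closest to MLLT6 (r = 0.949), KRT7 (r = 0.946) and CCDC117 (r = 0.945). For DNAJB1 the nearest were FUNDC2P1 (r = 0.919), CIB1 (r = 0.918) and LOC285442 (r = 0.917). HSPB1 followed MOB1A (r = 0.955), GOSR1 (r = 0.953) and KDM5C (r = 0.944) most closely. Near BAG3 lay INO80 (r = 0.964) and LRRFIP1 (r = 0.931). HSP90AA1 had the loosest neighbours, SBNO2 (r = 0.889), ZNF24 (r = 0.884) and HDAC6 (r = 0.871). All libraries of a line share its background, so these values say how the levels ran together over lines as much as over treatment.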

How the data were processed

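RNA-seq counts of 16 libraries were analysed. The authors deposited raw counts, whole numbers of reads per gene symbol and library without normalization; the submitters' processing notes name HISAT2, StringTie and GRCh37, with no version or role. Stranded total RNA libraries are described in the study's methods. Samples were grouped by cell line and treatment from the labels, and 0 columns of per-sample values were left unused. Genes were filtered with filterByExpr over 8 groups and scaled by TMM. The quasi-likelihood test of edgeR 4.0.16 (R 4.3.3) was fitted to all 16 libraries, with Benjamini-Hochberg adjustment over 21297 genes within each contrast and a threshold of 0.05. CPM uses TMM-scaled library sizes, and log2 CPM a prior count of 2. With 2 libraries per group, the spread was shared over groups (8 residual degrees of freedom, common biological coefficient of variation 0.153). Standard errors are the log2 fold change over the square root of F. The test was tested on simulated data.

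The members and the companion lists were chosen with earlier results of these data known. Named were all members, companions called in 1 direction in all 4 lines, the largest called rise and fall per line at a mean log2 CPM above 0, and the 3 nearest genes of each member, of which 1 is not reported here. Replicate numbers were not used as pairs in the main fit. Deviations of libraries with the same number correlated at 0.218 in J82 but at 0.0427 in RT112 and 0.0173 in TCCSUP. These values do not settle whether the numbers pair the samples. Alternatives were RLE scaling, library size alone, DESeq2 1.42.0, each line alone, other filters and thresholds, a replicate block, small noncoding RNA genes left out, summed copies, summed pseudogenes and each library left out. Most fits that left out a library kept all libraries of the line in question. A comparison of protein sequences was not run. Transcript lengths come from GENCODE v29 and promoters from RefSeq GRCh38.p14.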

Additional observations from a re-analysis of the deposited data

Results flagged for a closer look

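The effect of CM-1758 differed between the 4 cell lines for 7 members, by the F test of 3 interaction contrasts adjusted over all tested genes, of which 51.9% passed. HSPB1 gave the smallest adjusted p, 3.67e-05, with log2 fold changes of -1.27 in J82, -0.58 in RT112, -1.80 in TCCSUP and -0.05 in 253J. BAG3 followed (adjusted p = 0.000588) with -1.06 in J82, 0.62 in RT112, -0.06 in TCCSUP and -0.40 in 253J, where RT112 and J82 moved in opposite directions. DNAJB1 (adjusted p = 0.000616) changed by -0.46 in J82, 0.67 in RT112, -0.11 in TCCSUP and 0.81 in 253J. For HSP90AA1 (adjusted p = 0.00363) the values were -0.91 in J82, -0.21 in RT112, -0.40 in TCCSUP and 0.51 in 253J. HSPA1A (adjusted p = 0.00637) stood at -0.45 in J82, -0.51 in RT112, 0.57 in TCCSUP and 0.06 in 253J, and HSPA1B (adjusted p = 0.0116) at -0.48 in J82, -0.51 in RT112, 0.53 in TCCSUP and -0.06 in 253J. HSPA8 (adjusted p = 0.0215) was below 0 in every line, so its lines differed in size and not in direction. Of the 6 pairs of lines, the effect differed in 4 for HSPB1 and DNAJB1, 3 for BAG3, 2 for HSP90AA1, HSPA1A and HSPA1B, and 1 for HSPA8.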

How the results depend on the processing

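No called value of a member changed direction under any alternative run. Scaling by library size alone moved the median log2 fold change of all genes by 0.31 in TCCSUP, 0.27 in 253J and 0.15 in both J82 and RT112, and with it the companion genes higher were 25 in 253J and 33 in TCCSUP, and those lower in TCCSUP 9. With each line fitted alone, J82 had 5 members and 14 companions lower. Beyond a log2 fold change of 2 at an adjusted p under 0.01, 0 members were called in any line, and companions higher were 3, 1, 3 and 6 and lower 1, 0, 0 and 0 in order of 253J, J82, RT112, then TCCSUP. Beyond 1 at 0.05, members higher were 0 in each line and lower 1, 3, 1 and 1. Companions lower were 5, 8, 7 and 5, and higher 8 in 253J, 5 in J82 and 9 in TCCSUP. RT112 also had companions higher beyond 1, among them HSPA2 (3.33), HSPB8 (1.63), FKBP5 (1.32) and HSPA6 (1.19), and their number is not given here. With DESeq2 2 member calls were lost and 0 gained, with RLE scaling 4 and 0. Where no cause is built into the alternative, the cause was not tested.

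With each library left out in turn, the lone library of that arm being assumed to vary like the other groups, members higher were 0 to 0 in J82, 1 to 2 in RT112, 0 to 2 in TCCSUP and 1 to 2 in 253J. Members lower were 7 to 10, 3 to 7, 3 to 5 and 3 to 3 in the same order. Companions higher were 6 to 12, 10 to 14, 10 to 18 and 10 to 16, and lower 15 to 34, 16 to 32, 13 to 22 and 11 to 27. Members whose effect differed between lines were 5 to 8. The uncalled values of 253J reached -0.27 for HSF1 (without CM-1758 replicate 1), -0.26 for HSPA1B (control replicate 2) and -0.24 for HSPB1 (CM-1758 replicate 1), and BAG3 in TCCSUP -0.22 (control replicate 1).

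Values that changed sign were all uncalled. By library size alone these were HSF1 (0.18), HSPA1B (0.21) and HSPB1 (0.22) in 253J and DNAJB1 (0.20) and BAG3 (0.25) in TCCSUP, and with at least 10 counts in every library HSPA1B (0.023) and HSPB1 (0.034) in 253J and DNAJB1 (0.042) and BAG3 (0.091) in TCCSUP. With HSPA1A and HSPA1B summed, HSPA1B in 253J was 0.0024. In 253J, HSPA1A was -0.12 without control replicate 2, HSF1 0.00031 and HSPA1B 0.17 without control replicate 3, and HSF1 0.079 and HSPB1 0.12 without CM-1758 replicate 3. In TCCSUP, BAG3 was 0.11 without control replicate 2.

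Whether the replicate numbers pair the samples was not settled. With the replicate block in J82, RT112 and TCCSUP, members lower were 10 in J82, 7 in RT112, 6 in TCCSUP and 4 in 253J, and members higher 0, 2, 2 and 2, the added calls being HSPA1A in J82 (-0.45, adjusted p = 0.0384), HSF1 in RT112 (-0.42, 0.0378), HSPA8 (-0.46, 0.0412) and HSP90AA1 (-0.39, 0.0352) in TCCSUP and BAG3 in 253J (-0.40, 0.0317). Rows named as pseudogenes of a member held at most 1.33% of its counts.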

Other observations

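HSPA6, a strictly inducible HSP70, was named here after its values were seen. It stood at 4.3 ± 0.803 CPM in control and 1.25 ± 0.0903 CPM with CM-1758 (SD, n = 2) in 253J, a log2 fold change of -1.77 ± 0.34 (SE, adjusted p = 0.000461). In RT112 it rose by 1.19 ± 0.36 (SE, adjusted p = 0.0138) on the log2 scale and in TCCSUP by 1.61 ± 0.36 (SE, adjusted p = 0.00171), and in J82 the value was -0.83 ± 0.39 (SE, adjusted p = 0.102). Its levels in treated RT112 and TCCSUP, 1.68 and 2.33 CPM, stayed below its 253J control level of 4.3 CPM.

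The ratio of HSPA1A to HSPA1B counts varied little within a line, at 0.896 to 1.01 in the 4 libraries of 253J and 0.509 to 0.564 in the 12 of the other lines, also chosen after the values were seen. It was higher with CM-1758 without overlap in 253J (0.896 and 0.923 against 0.964 and 1.01) and J82 (0.509 and 0.511 against 0.515 and 0.524). The same held in TCCSUP (0.518 and 0.541 against 0.544 and 0.548), while the RT112 groups overlapped. The mean change of this ratio with CM-1758 was 0.05 on the log2 scale over the 4 lines, given with no test. How the authors' counting shared reads between the copies is not given in the sources used here.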
